A study of Mus musculus with 12 samples.

Results

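The 9 genes described here are Ccnd1, Ccnd2, Ccng1, Ccng2, Cdkn1a, Mdm2, Bax, Fas and Casp8, which together cover the cyclin D step of the cell cycle, p53 target genes and the death receptor route to apoptosis. They were taken by name from the 17734 genes of the deposited table. All 9 were among the 15315 genes that passed the filter on low values, a mean of at least 0.1 FPKM over the mice. FPKM is a level scaled for transcript length and sequencing depth, so levels can be compared between genes.

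Rectal RNA was sequenced from 12 male C57BL/6 mice of 8 to 10 weeks, 3 in each of 4 groups. Normal mice drank water and received neither agent. Colitis mice drank 2.5% dextran sulfate sodium (DSS), a polymer that injures the bowel lining, for 7 days. The other two groups, one on water and one on DSS, also received berberine (BBR), a plant alkaloid, as a daily gavage of 100 mg/kg. They are called normal and colitis mice receiving BBR. BBR was given for 7 days by the study's methods and by the treatment label, and for 6 days by the protocol label. Labels and methods also disagree on the tissue (colorectum or rectum), the library kit and the sequencer. The question put to the data was how these 9 genes differed with DSS, with BBR and with both.

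D-type cyclins (Ccnd1, Ccnd2) bind the kinases Cdk4 and Cdk6, which phosphorylate the retinoblastoma protein and so release E2F factors and allow entry into S phase. p53 is a transcription factor that is stabilised by DNA damage and other stress, and it induces genes that stop the cycle (Cdkn1a), limit p53 itself (Mdm2), or favour mitochondrial apoptosis (Bax). Death receptors such as Fas sit on the cell surface and, when bound by ligand, recruit an adaptor that activates caspase-8 (Casp8). The rectal epithelium renews continuously from dividing crypt cells and sheds its differentiated cells, so cell cycle and death genes are both expressed in the healthy tissue.

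The 4 mice numbered 4, 1 in each group, stood apart from the other 8. Their columns summed to 482194 to 504337 FPKM against 696286 to 765876 in the mice numbered 1 to 3, and 872 to 1086 genes were at 0 in them against 1332 to 1926. The labels do not say why, so the difference of each of the 9 genes with DSS averaged over BBR, and the calls of each pathway list, are also given for the mice numbered 1 to 3 alone. In these 8 mice 40.4% of all genes passed the adjusted limit for that difference, against 14.3% in all 12. With a block for the mice numbered 4 in the fit of all 12, 5344 of the 15315 genes passed it. Depth was not given. Judged by the spacing of low values, 3 reads on 2000 bases of transcript were worth 0.110 to 0.118 FPKM in the mice numbered 1 to 3 and 0.0757 to 0.0855 in those numbered 4, for counting error only. The lowest value of any of the 9 genes was 2.44 FPKM. Epithelial markers (9 genes, among them Epcam and Cdh1) summed to 7081 to 13447 FPKM over the 12 mice. In bulk tissue, fewer cells of a type and less RNA per cell cannot be told apart. With DSS, averaged over the mice without and with BBR, the gene in the middle of all genes differed by -0.36 on the log2 scale on the deposited values and -0.04 after quantile normalization, so directions are to be read against this shift.

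Cdkn1a (p21), which inhibits cyclin-dependent kinases and holds cells out of the cycle, was the most abundant of the 9 genes. Among these genes, only Cdkn1a passed the adjusted limit in any comparison of the main limma fit (all mice, deposited values, no block). Other members passed it only in alternative fits, which are given below. In normal mice its level was 288.25, 319.16 and 219.51 FPKM in mice 1, 3 and 4. In normal mice receiving BBR it was 312.51, 271.83 and 299.75 FPKM in mice 1, 3 and 4. In colitis mice it was 214.88, 214.33 and 143.39 FPKM in mice 1, 2 and 4. All 3 colitis mice lay below all 3 normal mice. In colitis mice receiving BBR the level was 186.29, 231.51 and 158.26 FPKM in mice 2, 3 and 4, again below every mouse that received BBR alone. Between the 6 mice given DSS and the 6 not given it, the groups overlapped only where colitis BBR mouse 3 (231.51) exceeded normal mouse 4 (219.51).

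The mean of Cdkn1a was 275.6 ± 51.0 FPKM (SD, n = 3) in normal mice, 294.7 ± 20.8 with BBR, 190.9 ± 41.1 in colitis mice and 192.0 ± 37.0 in colitis mice receiving BBR. The order of the means was normal with BBR, normal, colitis with BBR and colitis, and the neighbours within each pair differed by less than their spread. With DSS averaged over BBR, Cdkn1a fell by 0.59 on the log2 scale (SE 0.17, limma adjusted p = 0.0461, exact permutation test, two-sided, of 6 against 6 p = 0.00433, where 0.00216 is the smallest possible). This contrast called 14.3% of all genes at the adjusted limit. The fall stood at the 30.1 percentile of all genes. After quantile normalization it was -0.60 (adjusted p = 0.0294), but after centring each mouse on its median it was -0.19 (adjusted p = 0.698). The direction was the same in the mice numbered 1 to 3 alone (-0.49, adjusted p = 0.0262) and in the mice numbered 4 alone (-0.77). With a block for the mice numbered 4 the adjusted p was 0.00868, where 5344 of the 15315 genes passed. Without the block, the call was lost on leaving out any 1 of 11 of the 12 mice and was kept only without colitis BBR mouse 4. Over the 12 fits the adjusted p was 0.0423 to 0.0987 and the difference -0.66 to -0.49.

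**Figure D1:**
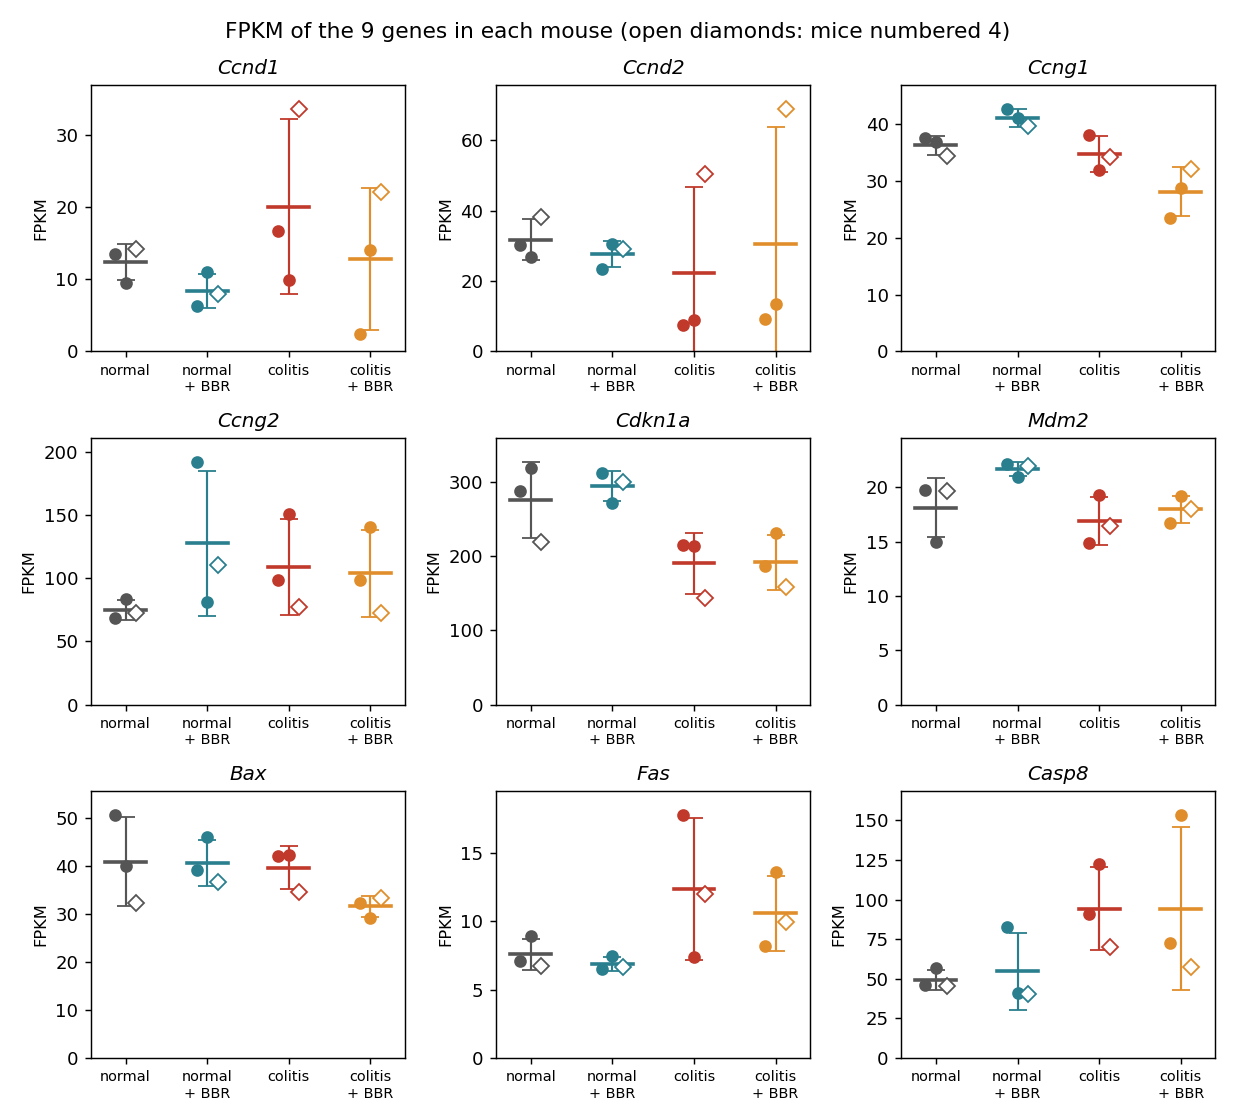
FPKM of each of the 9 genes in every mouse of the 4 groups, with 1 panel per gene and an axis from 0. Filled circles are mice numbered 1 to 3, open diamonds are mice numbered 4, the long bar is the group mean and the whiskers are 1 SD (n = 3; for Ccnd2 in both DSS groups the lower whisker is cut at 0). Cdkn1a was lower in the DSS groups, and Ccnd2 was at 7.46 to 13.42 FPKM in the DSS mice numbered 1 to 3 but at 50.48 and 68.77 in those numbered 4.

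Promoter sequence is shown for the p53 target genes Cdkn1a, Mdm2, Ccng1 and Bax, since theirs held the letters of a p53 site. RefSeq (GRCm38.p6) windows of 250 bases before to 50 bases after the start were given for 7 of the 9 genes, 8 promoters in all, and Ccnd1 and Ccnd2 had no entry. They were searched on both strands for 5 motifs, and overlapping matches of different motifs were allowed. A p53 half-site was found in 4 of the 8 promoters, 1 each of Cdkn1a, Mdm2, Ccng1 and Bax, against 8.36% of 32851 promoters. A window of 100 bases from each is printed 5′ to 3′ with the half-site in capitals.
Cdkn1a: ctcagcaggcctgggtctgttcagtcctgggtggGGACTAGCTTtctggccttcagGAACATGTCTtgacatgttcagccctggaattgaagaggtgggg
Mdm2: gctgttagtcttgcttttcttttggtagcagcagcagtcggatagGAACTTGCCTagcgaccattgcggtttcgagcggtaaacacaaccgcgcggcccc
Ccng1: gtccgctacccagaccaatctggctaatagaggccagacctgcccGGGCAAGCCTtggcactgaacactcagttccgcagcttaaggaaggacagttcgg
Bax: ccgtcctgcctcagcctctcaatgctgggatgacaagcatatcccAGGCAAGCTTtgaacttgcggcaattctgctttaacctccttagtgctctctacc
The window of Cdkn1a is chr17:29090872-29090971 on the + strand and holds 2 matches, which begin 73 and 51 bases before the start. The window of Mdm2 is chr10:117710890-117710989 on the - strand, that of Ccng1 is chr11:40755417-40755516 on the - strand and that of Bax is chr7:45467045-45467144 on the - strand, with matches that begin 186, 185 and 201 bases before the start. The second Cdkn1a promoter and those of Ccng2, Fas and Casp8 held none of these letters. The GAS motif TTCNNNGAA was in the Fas promoter, against 8.30% of all promoters, and the FOXO motif GTAAACA in that of Mdm2, against 3.65%. The E2F motif TTTCGCG and the NF-kB site were in 0 of the 8, against 0.849% and 4.51% of all promoters. A match describes letters and not a bound site.

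Ccng1 (cyclin G1, a p53-induced regulator of p53 stability) was at 37.52, 36.84 and 34.29 FPKM in normal mice 1, 3 and 4, and at 42.60, 41.03 and 39.56 FPKM in normal mice 1, 3 and 4 receiving BBR. The colitis mice 1, 2 and 4 had 38.10, 31.94 and 34.22 FPKM. In colitis mice 2, 3 and 4 receiving BBR it was at 23.48, 28.77 and 32.00 FPKM, below every mouse that received BBR alone. The difference between the BBR groups was -0.56 on the log2 scale (SE 0.16, limma adjusted p = 0.215), against -0.06 (SE 0.16, adjusted p = 0.832) without BBR. The first of these passed the limit in the mice numbered 1 to 3 alone (-0.68, adjusted p = 0.0447) and on leaving out colitis BBR mouse 4 (-0.66, adjusted p = 0.0360). It was -0.34 (adjusted p = 0.338) after quantile normalization and -0.11 (adjusted p = 0.882) after centring. The test of the difference between these effects gave -0.50 (SE 0.23, limma adjusted p = 1.00), so the DSS effect on Ccng1 was not shown to depend on BBR. Averaged over BBR the effect was -0.31 (adjusted p = 0.0788), at the 55.2 percentile of all genes, and it was -0.14 after quantile normalization and 0.08 after centring. It passed the limit in the mice numbered 1 to 3 alone (-0.39, adjusted p = 0.0428), with a block for the mice numbered 4 (adjusted p = 0.0446) and without colitis BBR mouse 4 (-0.36, adjusted p = 0.0321).

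Mdm2, the ubiquitin ligase that degrades p53, was at 19.74, 15.01 and 19.65 FPKM in normal mice 1, 3 and 4 and at 22.12, 21.00 and 21.98 FPKM with BBR. In colitis mice 1, 2 and 4 it was at 14.92, 19.28 and 16.42 FPKM, and in colitis mice 2, 3 and 4 receiving BBR at 16.74, 19.22 and 18.02 FPKM. The 3 normal mice receiving BBR were the highest and the most alike of the 12, and the other 3 groups overlapped. With DSS the difference averaged -0.19 (SE 0.12, limma adjusted p = 0.266). It was -0.14 in the mice numbered 1 to 3, and turned to 0.06 after quantile normalization and to 0.21 after centring.

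Bax, a pore-forming protein of the outer mitochondrial membrane, was at 50.49, 39.98 and 32.16 FPKM in normal mice 1, 3 and 4 and at 39.08, 45.92 and 36.62 FPKM with BBR. In colitis mice 1, 2 and 4 it was at 42.10, 42.30 and 34.55 FPKM, and in colitis mice 2, 3 and 4 receiving BBR at 32.28, 29.14 and 33.35 FPKM. The colitis mice receiving BBR lay below all colitis mice and all mice receiving BBR alone. The difference against colitis was -0.32 (SE 0.19, limma adjusted p = 0.933), -0.46 in the mice numbered 1 to 3 (adjusted p = 0.651) and -0.05 in those numbered 4. Against the normal mice receiving BBR it was -0.35 (limma adjusted p = 0.300), and 0.10 after centring. Averaged over BBR the DSS difference was -0.19 (adjusted p = 0.302), and -0.28 in the mice numbered 1 to 3.

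Ccng2 (cyclin G2, an atypical cyclin linked to cell cycle arrest and known as a FOXO target rather than a p53 target) ran from 68.58 to 191.55 FPKM over the 12 mice. In normal mice 1, 3 and 4 it was at 68.58, 83.81 and 72.33 FPKM, and with BBR at 191.55, 80.85 and 110.53 FPKM. The highest value of all was that of normal BBR mouse 1. In colitis mice 1, 2 and 4 it was at 98.32, 150.47 and 76.80 FPKM, and in colitis mice 2, 3 and 4 receiving BBR at 98.34, 140.50 and 72.62 FPKM. All 4 groups overlapped. The difference of normal mice receiving BBR from normal mice was 0.68 (SE 0.35, limma adjusted p = 1.00), and 0.34 to 0.96 on leaving out each mouse in turn. Of the 9 genes it was the only one whose difference with DSS had opposite signs without BBR (0.48) and with BBR (-0.26). The average was 0.11 (adjusted p = 0.741), 0.30 in the mice numbered 1 to 3 and -0.26 in those numbered 4.

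Fas and Casp8, the death receptor and its initiator caspase, were the 2 members with higher levels in the DSS groups at the unadjusted limit. Fas was at 7.07, 8.90 and 6.75 FPKM in normal mice 1, 3 and 4 and at 6.52, 7.45 and 6.63 FPKM with BBR. In colitis mice 1, 2 and 4 it was at 17.76, 7.37 and 12.03 FPKM, and in colitis mice 2, 3 and 4 receiving BBR at 8.20, 13.60 and 9.93 FPKM. Colitis mouse 2 and colitis BBR mouse 2 lay within the range of the mice not given DSS, and the other 4 DSS mice lay above it. The difference with DSS averaged over BBR was 0.61 (SE 0.21, P = 0.0155, limma adjusted p = 0.0695, exact permutation test, two-sided, of 6 against 6 p = 0.0130), at the 93.5 percentile of all genes. It was 0.95 after quantile normalization (adjusted p = 0.0247) and 1.00 after centring, past the adjusted limit in both, and it passed without colitis mouse 2 (0.77, adjusted p = 0.0403) and with a block for the mice numbered 4 (adjusted p = 0.0495). It did not pass in the mice numbered 1 to 3 alone (0.56, adjusted p = 0.179).

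Casp8 was at 46.20, 56.68 and 45.22 FPKM in normal mice 1, 3 and 4 and at 82.85, 40.90 and 40.06 FPKM with BBR. With DSS, colitis mice 1, 2 and 4 were at 90.92, 122.24 and 69.79 FPKM, above every normal mouse. Colitis mice 2, 3 and 4 receiving BBR were at 72.38, 153.12 and 57.21 FPKM, which overlapped with the 82.85 FPKM of normal BBR mouse 1. The mean was 49.4 ± 6.4 FPKM (SD, n = 3) in normal mice, 54.6 ± 24.5 with BBR, 94.3 ± 26.4 in colitis mice and 94.2 ± 51.6 in colitis mice receiving BBR. Against normal mice the colitis mice differed by 0.90 (SE 0.38, limma adjusted p = 0.203), and the exact permutation test of these groups gave p = 0.1, the smallest it can give. Averaged over BBR the difference was 0.82 (SE 0.27, P = 0.0102, adjusted p = 0.0574, exact permutation test, two-sided, of 6 against 6 p = 0.0130), at the 95.4 percentile. It passed the adjusted limit without colitis mouse 4 (0.92) and without colitis BBR mouse 4 (0.97), and in the mice numbered 1 to 3 alone (0.95, adjusted p = 0.0490), and with a block for the mice numbered 4 (adjusted p = 0.0212). It did not pass after quantile normalization (0.90, adjusted p = 0.0556), after centring or in the 10 other fits that left out 1 mouse.

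Cell type markers moved with DSS too. The 7 granulocyte markers tested had a median difference of 2.16 averaged over BBR, with 4 past the adjusted limit, and their sum ran from 491 to 4170 FPKM in the DSS mice against 262 to 793 in the others. The 8 smooth muscle markers had a median of -2.42, with 7 past the limit (0 after quantile normalization, where the median was -2.25), and their sum ran from 73.7 to 3538 FPKM in the DSS mice against 1669 to 5013 in the others. Of 5 endothelial markers 3 were lower past the limit (median -1.11), of 7 fibroblast markers 2 (median -0.92), of 6 B and plasma cell markers 2 (median -0.98) and of 7 neuron and glia markers 1 (median -0.82). Of 7 macrophage and monocyte markers 2 were higher past it (median 0.57). The 9 epithelial markers had a median of 0.10 and the 7 T and NK cell markers one of -0.23, and none of either passed. After quantile normalization 1 endothelial (median -0.61), 0 fibroblast (-0.62), 0 neuron and glia (-0.39), 2 B and plasma cell (-0.50), 3 macrophage and monocyte (0.56) and 6 granulocyte markers (2.55) passed, and the T and NK cell median turned to 0.28. Squamous markers summed to at most 8.89 FPKM, with Krt5 and Krt4 below the filter. The part of these shifts in the differences of Cdkn1a, Fas and Casp8 was not tested.

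Within both DSS groups the D-type cyclins had the widest spread of the 9 genes relative to their means, with a coefficient of variation of 109% for Ccnd2 in colitis mice. Ccnd2, which encodes cyclin D2, was at 30.25, 26.77 and 38.06 FPKM in normal mice 1, 3 and 4 and at 23.43, 30.42 and 29.01 FPKM with BBR. The values of colitis mice 1, 2 and 4 were 7.46, 8.99 and 50.48 FPKM. In colitis mice 2, 3 and 4 receiving BBR it was at 9.21, 13.42 and 68.77 FPKM. The 4 DSS mice numbered 1 to 3 lay below all 6 mice not given DSS, and the 2 DSS mice numbered 4 above all of them. The mean of colitis mice was therefore 22.3 ± 24.4 FPKM (SD, n = 3), with an SD larger than the mean.

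With all 12 mice the difference of Ccnd2 with DSS averaged over BBR was -0.74 (SE 0.53, limma adjusted p = 0.300), and it was -0.44 (adjusted p = 0.615) after quantile normalization and -0.34 (adjusted p = 0.658) after centring. In the mice numbered 1 to 3 it was -1.52 (adjusted p = 0.00513), and in those numbered 4 it was 0.82. Within the mice numbered 1 to 3 it passed the limit both without BBR (-1.78, adjusted p = 0.0285) and with BBR (-1.26, adjusted p = 0.0334). Leaving out colitis BBR mouse 4 alone gave -1.18 (adjusted p = 0.0476). In each of the 4 groups, mouse 4 had the lowest granulocyte marker sum (262 FPKM in normal, 420 in normal BBR, 601 in colitis and 491 in colitis BBR mice) and the highest smooth muscle marker sum (3156, 5013, 676 and 3538 FPKM). Mouse 4 was also the highest of its group for Ccnd2 in 3 of the 4 groups, and in the normal BBR group it lay between the other 2 mice. The part of these differences between the mice in the values of Ccnd2 was not tested.

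**Figure D2:**
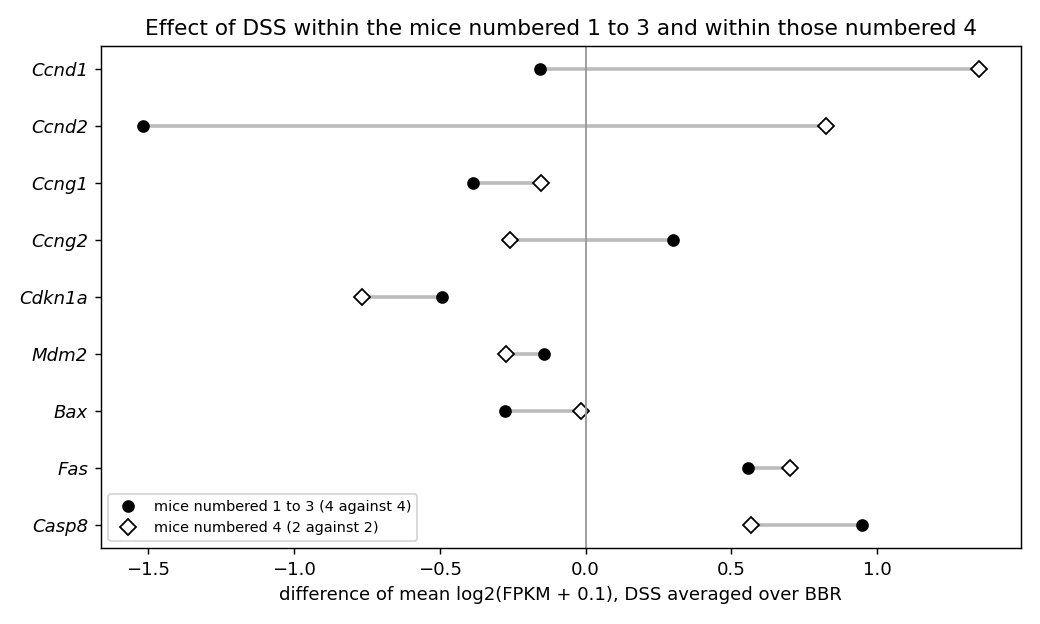
Difference of mean log2(FPKM + 0.1) with DSS, averaged over mice without and with BBR, for each of the 9 genes. Filled circles are the mice numbered 1 to 3 (4 with DSS against 4 without) and open diamonds those numbered 4 (2 against 2); Ccnd2, Ccnd1 and Ccng2 lay on opposite sides of 0 in the 2 sets and the other 6 genes on the same side.

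Ccnd1, a D cyclin and Wnt-responsive gene of crypt cells, was at 13.44, 9.52 and 14.18 FPKM in normal mice 1, 3 and 4 and at 6.34, 10.97 and 7.94 FPKM with BBR. Colitis mice 1, 2 and 4 had 16.67, 9.93 and 33.53 FPKM, and colitis mice 2, 3 and 4 receiving BBR had 2.44, 13.98 and 22.05 FPKM. The highest value of each DSS group was that of mouse 4, and all 4 groups overlapped. The difference with DSS averaged over BBR was 0.35 (SE 0.47, limma adjusted p = 0.590), -0.16 in the mice numbered 1 to 3 and 1.35 in those numbered 4. It was 0.71 (adjusted p = 0.286) after quantile normalization and 0.03 to 0.81 on leaving out each mouse in turn. The ratio of Ccnd2 to Ccnd1 within a mouse, which needs no scaling between mice, was 2.25 to 3.70 in the 6 mice not given DSS. It was 0.448, 0.905 and 1.51 in colitis mice 1, 2 and 4, below all of these. In colitis mice 2, 3 and 4 receiving BBR it was 3.77, 0.960 and 3.12. The 3.77 of mouse 2 came with the lowest Ccnd1 of all mice (2.44 FPKM) and a Ccnd2 of only 9.21 FPKM. The 3.12 is that of a mouse numbered 4.

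Counted over the 9 genes, no comparison of 3 mice against 3 gave a member past the adjusted limit in the main limma fit. In colitis against normal mice 0 of 9 passed, where 1.08% of all genes did, and 2 of 9 passed at an unadjusted P of at most 0.05 (Casp8 higher, Cdkn1a lower), where 21.4% of all genes did. The same 2 did not overlap between the groups, against 29.3% of all genes. Among the mice receiving BBR, colitis against normal, 0 passed the adjusted limit (0.0392% of all genes), 2 the unadjusted one (Ccng1 and Cdkn1a, both lower, 19.7% of all genes) and 5 did not overlap (Fas higher and Cdkn1a, Ccng1, Bax and Mdm2 lower, 20.2% of all genes). Averaged over BBR, 1 of 9 passed the adjusted limit and 4 the unadjusted one (Fas and Casp8 higher, Cdkn1a and Ccng1 lower), where 39% of all genes did. In the mice numbered 1 to 3 alone 4 of 9 passed the adjusted limit (Ccnd2, Cdkn1a and Ccng1 lower, Casp8 higher), near the 40.4% of all genes. None was without overlap between 6 and 6 mice, against 5.78% of all genes. The members' shares at the unadjusted limit, 2 of 9 and 4 of 9, were near those of all genes. The DSS differences without and with BBR share no mouse, and they had the same sign in 8 of the 9 genes and in 82.1% of all genes.

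**Figure D3:**
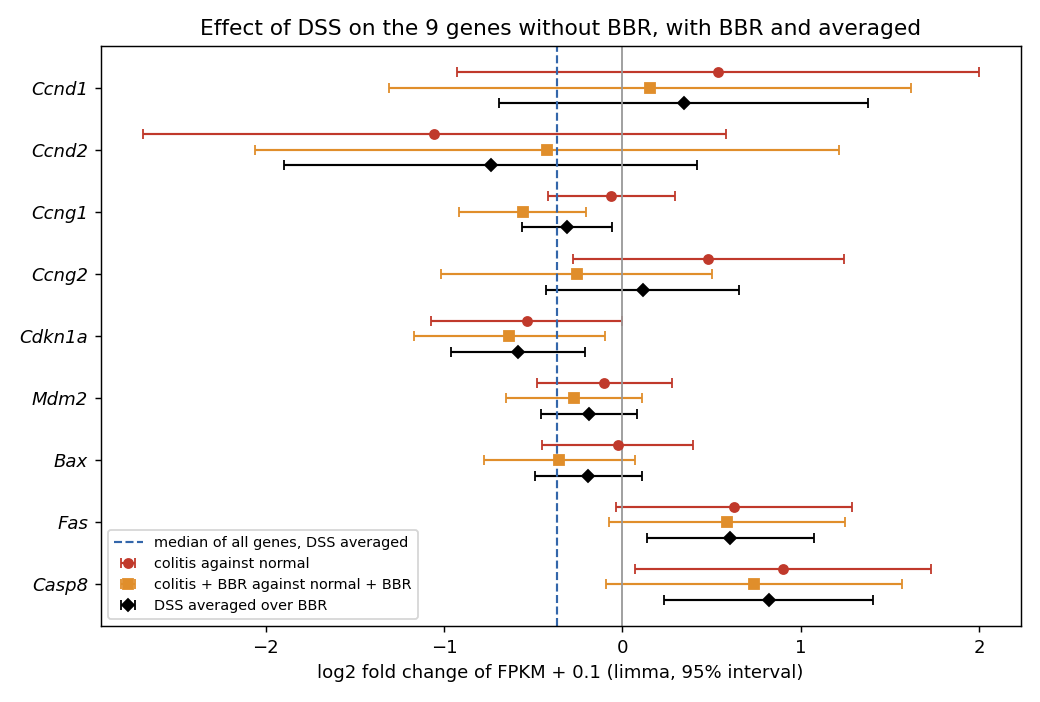
Log2 fold change of the 9 genes with its 95% interval from limma, for colitis against normal (circles), colitis with BBR against normal with BBR (squares) and DSS averaged over BBR (diamonds), with a dashed line at the median of all genes for the average (-0.36). The intervals of Cdkn1a and Ccng1 lay below 0 and those of Fas and Casp8 above 0 for the average, and the intervals of Ccnd1 and Ccnd2 were the widest.

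In the main fit, BBR gave no member past either limit. In colitis mice receiving BBR against colitis mice, 0 of 9 passed the adjusted limit in limma (0% of all genes) and 0 the unadjusted one (6.39% of all genes), and Bax was the 1 gene without overlap (7.08% of all genes). The 95% interval of the difference was -0.52 to 0.55 for Cdkn1a, -0.83 to 0.49 for Fas and -0.93 to 0.73 for Casp8, so differences of these sizes could not be told from 0. In normal mice receiving BBR against normal mice, 0 of 9 passed the adjusted limit (0% of all genes) and 0 the unadjusted one (1.36% of all genes). Ccng1 and Mdm2 were higher without overlap (9.62% of all genes), by 0.18 and 0.27 (limma adjusted p = 1.00 for both). For the difference between the DSS effects with and without BBR, 0 of 9 passed the adjusted limit (0% of all genes) and 0 the unadjusted one (2.42% of all genes). Within the mice numbered 1 to 3 alone, 2 members (Ccng1 and Bax, both lower) passed the unadjusted limit in colitis mice receiving BBR against colitis mice. In the difference between the DSS effects 1 member did (Ccng1). The share of all genes at this limit was not counted for these mice, so these counts cannot be read as an effect of BBR. At the adjusted limit 0 of all genes passed in these mice in either comparison.

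The other genes of the same pathways give the setting of these values, and all counts are for DSS averaged over BBR. Over all genes 78.5% lay below 0, 14.3% passed the adjusted limit and 39% the unadjusted one. After quantile normalization 54.1% lay below 0 and 8.34% passed the adjusted limit. Of 17 other genes of the cyclin D, CDK and RB axis, 1 rose and 3 fell past the adjusted limit, with a list median of -0.36, the same as for all genes. E2f2, an activating E2F, rose by 1.56 (adjusted p = 0.0413). E2f3, another activating E2F, fell by 1.51 (adjusted p = 0.0412), Cdk6, a partner kinase of the D cyclins, fell by 1.24 (adjusted p = 0.0374) and Rbl2 (p130, a relative of the retinoblastoma protein) fell by 0.81 (adjusted p = 0.0266). The partner kinase Cdk4 differed by -0.74 (adjusted p = 0.0607) and the third D cyclin, Ccnd3, by -0.30 (adjusted p = 0.236). After quantile normalization E2f2 was the 1 gene of this list past the limit, with E2f3 at -1.10, Cdk6 at -0.74 and Rbl2 at -0.48. In the mice numbered 1 to 3, 6 of 17 passed, all lower, where 40.4% of all genes did, and E2f2 did not (adjusted p = 0.108).

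Of 14 genes of p53 and its regulators, all had values below 0, with a median of -0.48, and 2 fell past the adjusted limit. Atm, the kinase that signals DNA breaks to p53, fell by 0.89 (adjusted p = 0.0458), and Mdm4, the partner of Mdm2, fell by 0.47 (adjusted p = 0.0467). Trp53, which encodes p53, differed by -0.71 (adjusted p = 0.0871). These 2 of 14 are the share of all genes. After quantile normalization neither passed (Atm -0.40, adjusted p = 0.278; Mdm4 -0.16, adjusted p = 0.459), and the list median was -0.13. In the mice numbered 1 to 3, 8 of 14 passed, all lower, where 40.4% of all genes did.

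Of 38 other p53 target genes, 1 rose and 6 fell, with a median of -0.35. Igfbp3, an IGF-binding protein, fell by 2.56 (adjusted p = 0.000917), from 17.3 ± 3.5 FPKM (SD, n = 3) in normal to 2.93 ± 0.92 in colitis mice. Plk3, a stress-responsive kinase, fell by 1.09 (adjusted p = 0.0218), and the DNA repair genes Xpc and Ddb2 fell by 0.84 (adjusted p = 0.0228) and by 0.79 (adjusted p = 0.0399). Sesn1, a stress-induced inhibitor of mTORC1 signalling, fell by 1.00 (adjusted p = 0.0358), and Phlda3, an inhibitor of Akt, fell by 0.78 (adjusted p = 0.0413). Shisa5, a pro-apoptotic protein of the endoplasmic reticulum, rose by 0.45 (adjusted p = 0.0480). After quantile normalization the median was -0.04, and of these 7 genes Igfbp3, Plk3 and Shisa5 still passed the limit, with Xpc at -0.41, Ddb2 at -0.36, Sesn1 at -0.56 and Phlda3 at -0.36. In the mice numbered 1 to 3, 12 of 38 passed, 1 higher and 11 lower, where 40.4% of all genes did.

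Of 23 other genes of the death receptor pathway, 5 rose and 0 fell in limma, with 6 higher and 3 lower at an unadjusted P of at most 0.05, a share near the 39% of all genes. After quantile normalization 6 passed the adjusted limit, all higher, and in the mice numbered 1 to 3 7 passed, 5 higher and 2 lower, where 40.4% of all genes did. The list median was 0.03, against -0.36 for all genes. Tnf, a death receptor ligand, rose by 4.75 (adjusted p = 0.00153), and was 0.357 ± 0.038 FPKM (SD, n = 3) in normal, 0.297 ± 0.045 in normal BBR, 16.5 ± 7.2 in colitis and 14.6 ± 16.9 FPKM in colitis BBR mice. Tnfsf10 (TRAIL), another such ligand, rose by 1.44 (adjusted p = 0.0465), but did not pass in the mice numbered 1 to 3 (1.25, adjusted p = 0.120). Ripk3 and Mlkl, the kinase and the effector of necroptosis, rose by 2.10 (adjusted p = 0.0134) and by 0.80 (adjusted p = 0.0212). Fadd, the adaptor between Fas and caspase-8, differed by -0.35 (adjusted p = 0.360), and Cflar, which restrains caspase-8, by 0.13 (adjusted p = 0.594). Fasl, the ligand of Fas, was below the filter and was not tested.

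Of 19 genes of the BCL-2 family and apoptosome, 2 rose and 4 fell, with a median of -0.16. The anti-apoptotic Mcl1, Bcl2 and Bcl2l2 fell by 0.85 (adjusted p = 0.0163), by 1.26 (adjusted p = 0.0485) and by 0.52 (adjusted p = 0.0400), and the anti-apoptotic Bcl2a1b rose by 1.73 (adjusted p = 0.0467). Apaf1, the scaffold of the apoptosome, rose by 0.76 (adjusted p = 0.0269), and Diablo, which relieves inhibition of caspases, fell by 0.35 (adjusted p = 0.0475). After quantile normalization only Mcl1 and Apaf1 of these 6 passed, and Bcl2 was at -0.77, Bcl2l2 at -0.27, Bcl2a1b at 2.13 and Diablo at -0.11. In the mice numbered 1 to 3, 9 of 19 passed, 4 higher and 5 lower, where 40.4% of all genes did. Bak1, the relative of Bax with the same role, differed by 0.36 (adjusted p = 0.0992).

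Of 16 proliferation markers, 0 passed the adjusted limit in limma, in all mice or in those numbered 1 to 3, and 0 the unadjusted one in all mice, with a median of -0.55, -1.04 in the mice numbered 1 to 3 and 0.40 in those numbered 4. After quantile normalization the median was -0.12, against -0.04 for all genes. In colitis mice receiving BBR against colitis mice their median was -1.94, against -0.09 for all genes, and 9 of 16 were lower at the unadjusted limit, where 6.39% of all genes passed it, with 0 past the adjusted one. Cell type marker lists also had medians away from 0 in this comparison, with 0 markers past the adjusted limit in limma. All 8 smooth muscle markers were above 0 (median 1.53, 0 past the unadjusted limit). All 7 macrophage and monocyte markers lay below it (median -0.99, 4 past the unadjusted limit). So did all 7 fibroblast (median -0.998, 1 past) and all 7 T and NK cell markers (median -0.55, 1 past). Lower too were 6 of 7 granulocyte (median -0.54, 1 past), 4 of 6 B and plasma cell (-0.39, 2 past) and 4 of 5 squamous markers (-0.55, 1 past). The median was -0.12 for epithelial (0 past), -0.18 for endothelial (0 past) and -0.05 for neuron and glia markers (1 past). The part of these markers in the proliferation values was not tested. In normal mice receiving BBR against normal mice all 16 proliferation markers lay below 0, with a median of -1.20 against -0.02 for all genes (-0.70 in the mice numbered 1 to 3 and -2.02 in those numbered 4), and 1 passed the unadjusted limit, where 1.36% of all genes did, and 0 the adjusted one. There all 8 smooth muscle markers were above 0 (median 0.58) and all 9 epithelial markers below it (median -0.17), with 0 past the unadjusted limit in either. The other marker lists had members on both sides of 0. The part of these markers was not tested. In colitis mice, Ccnd1 differed with BBR by -0.95 (SE 0.67, limma adjusted p = 0.991).

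**Figure D4:**
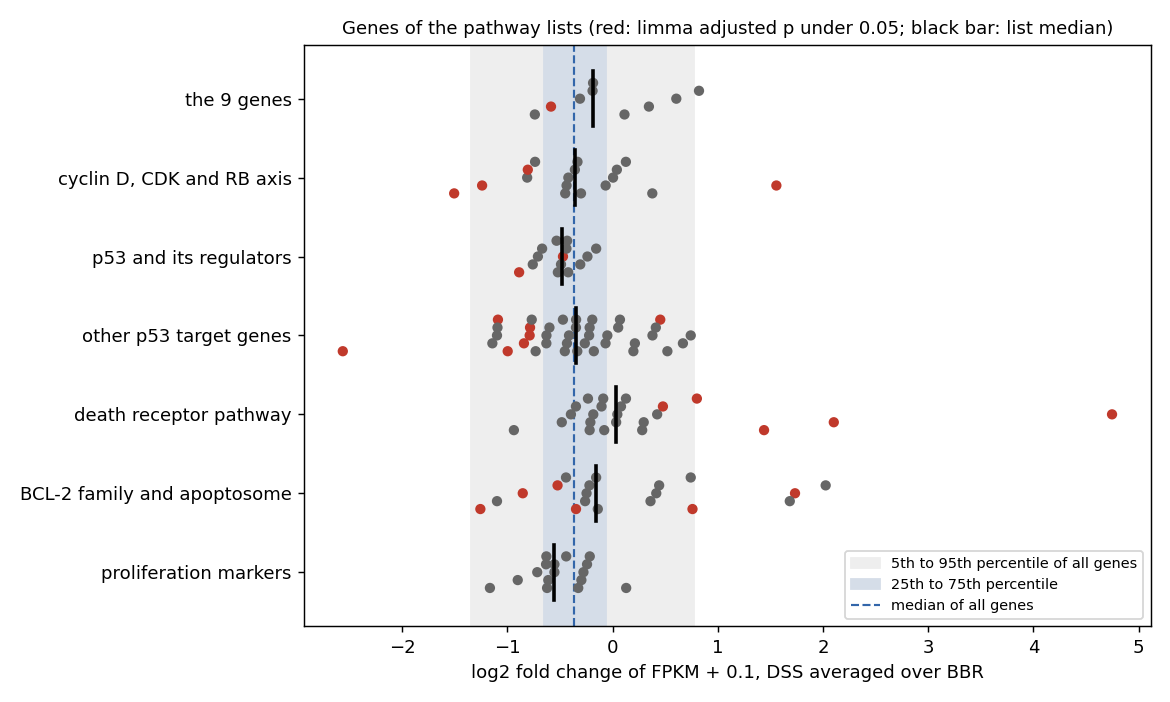
Log2 fold change with DSS averaged over BBR for each tested gene of the 6 pathway lists and for the 9 genes, with red points past the adjusted limit in limma, black bars at list medians and shaded bands over all 15315 genes. The median of the death receptor list was 0.03 and those of the p53 lists were -0.48 and -0.35, against -0.36 for all genes.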

How the data were processed

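Rectal RNA of 12 mice was grouped by the sample labels. The authors filtered reads with SOAPnuke, aligned them with Bowtie2 2.2.5 and estimated expression with RSEM 1.2.12, with mm9 as the build in the submitters' processing notes. The deposited values were taken as FPKM because of their range and sums. No source names the unit, and TPM with rows left out cannot be told apart. No read counts were used.

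Genes with a mean of at least 0.1 were fitted as log2(FPKM + 0.1) in limma 3.58.1 (R 4.3.3), using group means over all 12 mice and no covariate. Benjamini-Hochberg adjustment was over the 15315 genes, with a limit of 0.05 beside the study's limit of an unadjusted P of at most 0.05. P-values measure only the spread between these mice. Single genes also had an exact permutation test, two-sided, which cannot go below 0.1 for 3 against 3. Fold changes on this scale understate the change of low genes.

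The 9 genes and the lists were chosen with earlier results of these data known, and Ccnd1, Ccng2, Fas and Casp8 belong to a heatmap that the study drew from these mice, so none is independent evidence. Genes named from the lists passed the adjusted limit, were among the 2 with the smallest P of their list in a comparison, or, for Ccnd3, Cdk4, Trp53, Fadd, Cflar and Bak1, were named after their values were seen for their place beside a member. The values of 1 gene of the death receptor list are not reported here. Same-numbered normal mice without and with BBR each correlated in their deviations (r = 0.29, 0.11 and 0.66 for mice 1, 3 and 4), but mice 1 and 3 did so more with the other number (r = 0.37 and 0.46), so the pairing rests on the mice numbered 4, and a block for the number changed no call there. Alternatives were other pseudocounts (1 and 0.01) and filters, quantile normalization, median centring, the compared groups alone, no trend, blocks, the mice numbered 1 to 3 alone and each mouse left out. Fits were tested on simulated data. Figures used Python 3.11.15 and matplotlib 3.10.9.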

Additional observations from a re-analysis of the deposited data

How the results depend on the processing

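Over 23 settings, 560 log2 fold changes of the 9 genes were recomputed, and 499 kept their direction and their side of the adjusted limit. Most of these were not past the limit as reported. The 1 that was, Cdkn1a with DSS averaged over BBR, stayed past it in 8 of 22 alternatives and lost it in 14. With DSS averaged over BBR, members past the limit numbered 1 as reported, 0 with no filter and with no trend, 2 with quantile normalization and with the replicate block, 4 with a block for the mice numbered 4 and in the mice numbered 1 to 3 alone, and 0 to 4 on leaving out each mouse. Of all 15315 genes, 2188 passed as reported, 1278 with quantile normalization and 2473 with the replicate block. With a block for the mice numbered 4, 5344 passed, and 6187 in the mice numbered 1 to 3 alone. For the other settings this was not counted. In colitis against normal, 1 member passed with the replicate block (Fas, adjusted p = 0.0495), where 734 of the 15315 genes did. In the mice numbered 1 to 3, 1 passed (Ccnd2), where 804 of all genes did, against 165 as reported. With BBR in both groups, 2 members passed in the mice numbered 1 to 3 (Ccnd2 and Ccng1), where 2302 of the 15315 genes did, against 6 as reported. On leaving out each mouse, 0 to 1 member passed. Signs turned as follows, and the cause was not tested. In colitis against normal, quantile normalization gave Bax 0.0908, Ccng1 0.0558 and Mdm2 0.10, centring gave 0.31, 0.27 and 0.24, the replicate block gave Ccng1 0.0275, and leaving out each mouse gave Bax -0.19 to 0.14. With BBR in both groups, centring gave Bax 0.10, Ccnd2 0.0289, Ccng2 0.20 and Mdm2 0.18, quantile normalization gave Mdm2 0.0149, and the mice numbered 1 to 3 gave Ccnd1 -0.50. Leaving out each mouse gave Ccnd1 -0.47 to 1.09, Ccnd2 -1.30 to 0.15 and Ccng2 -0.54 to 0.0827. For the average, centring gave Bax 0.20, Ccng1 0.0846 and Mdm2 0.21, quantile normalization gave Mdm2 0.0590, the mice numbered 1 to 3 gave Ccnd1 -0.16, and leaving out each mouse gave Ccng2 -0.0280 to 0.28. At the unadjusted limit, members with BBR against without numbered 0 as reported in colitis mice, 1 with the replicate block and 2 both in the mice numbered 1 to 3 and without colitis BBR mouse 4. In normal mice they numbered 1 after quantile normalization and without normal BBR mouse 3. For the difference between the DSS effects, the count of 0 moved in 7 of 22 settings. The share of all genes at the unadjusted limit was not counted for these settings, so these counts cannot be set against it. Same-numbered mice outside the 2 normal groups were not taken as paired, since 1 of their 10 pairs had a correlation under 0.1 (r = 0.08 to 0.75, and 0.36 to 0.75 over the 6 pairs of mice numbered 4), so the replicate block is given only here.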

Other observations

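The genes whose log2 levels ran most like each member over the 12 mice, among 11943 genes with a mean of at least 1 FPKM, are given as a description, since the mice share groups and the difference of the mice numbered 4. Ccnd1 ran most like Ccne1, the cyclin of S phase entry (Pearson r = 0.94, Spearman rho = 0.87), Mybl2 (r = 0.93) and Ybx1 (r = 0.93). Ccnd2 ran most like Pprc1 (r = 0.97), B3gnt7 (r = 0.97, rho = 0.99) and Irf2bp1 (r = 0.96). Cdkn1a ran most like Slu7, a splicing factor (r = 0.96, rho = 0.93), Sbds and Rbm18. Casp8 ran most like Atp10b (r = 0.96, rho = 0.98), Zdhhc13 and Galnt3 (both r = 0.96). Fas ran most like Akr1c18 (r = 0.90, rho = 0.79), Vps37c and Ndst1.

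For the cyclins G, Ccng1 ran most like Eif3e (r = 0.95, rho = 0.82), Usp34 and Crnkl1, and Ccng2 like Ist1 (r = 0.95, rho = 0.85), Frk and Rhpn2. Mdm2 ran most like Pde8a (r = 0.88, rho = 0.80), Mafk and Rabep1, and Bax like 2310009B15Rik (r = 0.92, rho = 0.93), Unc50 and Churc1.

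With Spearman rho in place of Pearson r, 5 of these 27 genes stayed among the 3 most alike of their member.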
